A study of Mus musculus with 24 samples.

Results

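The endoplasmic reticulum (ER) stress sensors, Parp16 and the CREB3 family were followed as 10 genes: Parp16, Eif2ak3, Ern1, Xbp1, Atf6, Atf6b, Mbtps1, Creb3, Creb3l2 and Creb3l3. They were found by matching the gene identifiers of the expression table to these symbols, and all 10 were present among the 18171 genes of the table. The 10 were selected on measured values, their FPKM by genotype and set in these same libraries, so their group differences are given as a description, with no p-value. Where members past the threshold of the fit over all genes are counted, the share of all genes past it stands beside the count and nothing is read from it. All 10 reached 1 FPKM (fragments per kilobase of transcript, scaled to the mapped fragments of the library) in at least 6 libraries and so were among the 10532 genes kept for the fits.

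The unfolded protein response begins at the ER membrane, where unfolded proteins in the lumen activate 3 kinds of sensor. PERK, the product of Eif2ak3, phosphorylates the translation factor eIF2alpha. IRE1, the product of Ern1, splices the mRNA of the transcription factor Xbp1. Atf6 and Atf6b encode transcription factors held in the ER membrane, which travel to the Golgi and are cut there by the site-1 protease, encoded by Mbtps1. The CREB3 family (Creb3, Creb3l2 and Creb3l3 here) consists of membrane-bound transcription factors of similar build, and Creb3l3 is best known from hepatocytes, where it drives genes of triglyceride metabolism. Parp16 encodes an ER-anchored ADP-ribosyltransferase that, in human cells, modifies PERK and IRE1.

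Liver RNA of C57BL/6 mice was sequenced in 24 libraries. There were 12 libraries from mice that overexpressed L2 delta13 and 12 from wild-type (WT) mice, and the sample names split each genotype by a digit into set 4 (6 libraries) and set 2 (6 libraries). The labels do not say what the digit stands for, nor the age, the sex, how L2 delta13 was delivered, or the time of day at which livers were taken. They also do not say whether each library is a separate mouse, so the p-values cover only library-to-library spread, which may be technical. Fitted differences are on the scale of log2(FPKM + 1), which understates the change of genes at low FPKM. Whole liver was sequenced, so fewer cells of a type and less RNA per cell cannot be told apart.

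As a check of the labels, Loxl2 averaged 1.5 ± 0.384 FPKM in L2 delta13 livers and 0.680 ± 0.254 FPKM in WT livers (SD, n = 12 each). Gm21451, annotated as a Loxl2-like gene whose reads may be split with it, averaged 172 ± 69.3 FPKM in L2 delta13 livers and 0.240 ± 0.339 FPKM in WT livers. FPKM sums ran from 550260 to 722980, and 9463 to 11371 genes reached 1 FPKM per library. Read totals are not given by FPKM, so the depth is unknown. The FPKM of 1 fragment was estimated from the steps between low values, and the libraries were ranked by it. The top 6 (1.038 to 1.279 relative to the median) were set apart from the other 18 (0.963 to 1.024). The number 6 was set by hand, and the values on either side of the cut, 1.024 and 1.038, lie close together. The 6 were 1 of L2 delta13 set 2, 1 of WT set 2 and 4 of WT set 4, so this class of library is partly confounded with WT set 4. Hepatocyte markers were abundant in every library, and none of the 7 measured was 0 throughout a group. Their sum fell to 20710 FPKM in a library of L2 delta13 set 2, where the median was 41640 FPKM. In the other groups it was at least 36980 FPKM. The summed exocrine pancreas markers reached 78.55 FPKM in replicate 1 of L2 delta13 set 2, and at most 0.88 FPKM in the WT groups.

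**Figure D1:**
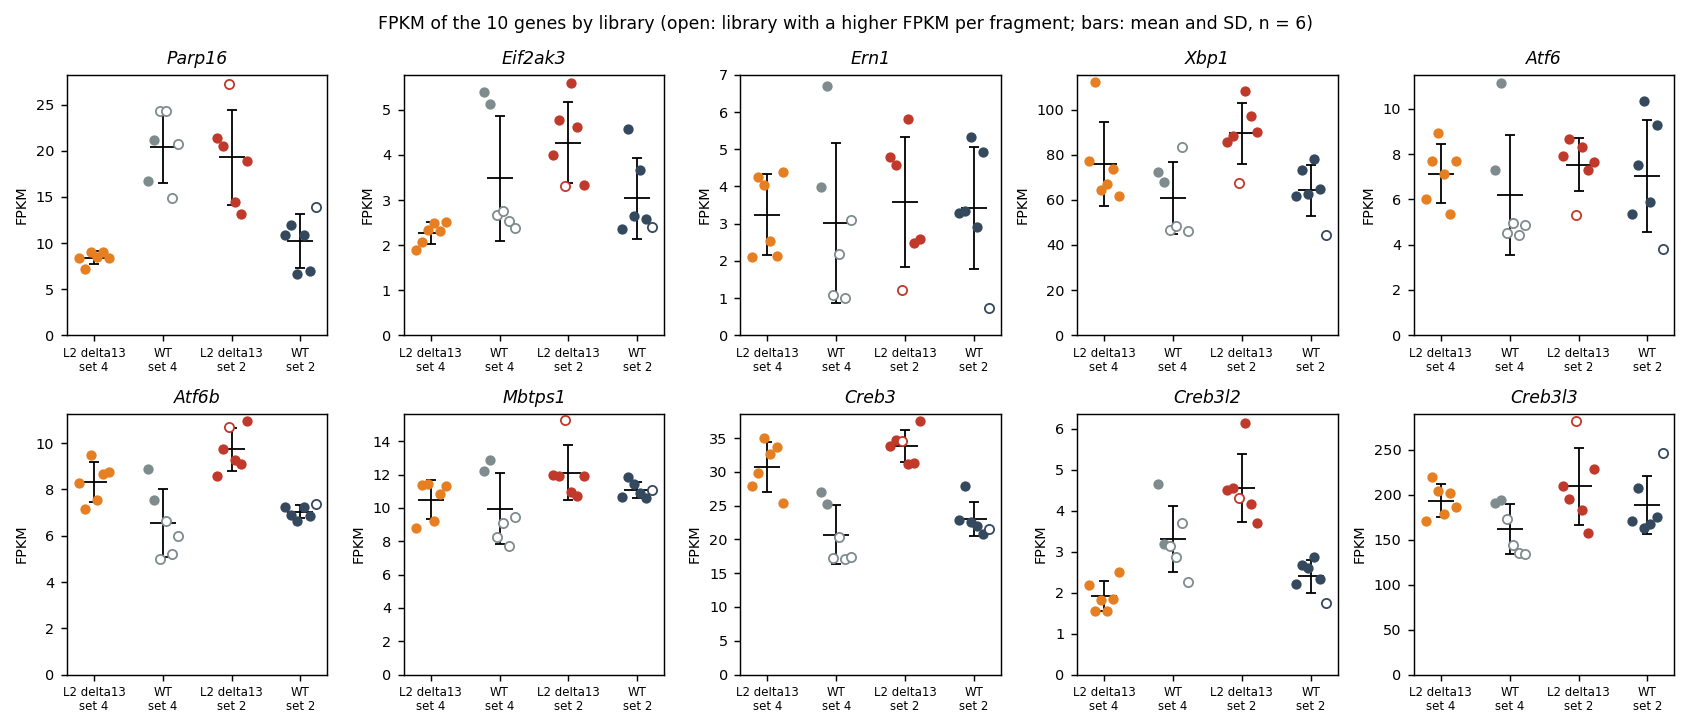
FPKM of each of the 10 genes (y axis, linear, from 0) in the 24 libraries, by group (x axis). Points are libraries, open points the 6 libraries with a higher FPKM per fragment, and bars the mean and SD of 6 libraries. For Parp16, L2 delta13 libraries lie below WT in set 4 (8.42 against 20.4 FPKM on average) and mostly above WT in set 2 (19.3 against 10.2 FPKM).

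The levels of the 10 genes spanned a wide range. Creb3l3 had the highest, 188 ± 34.3 FPKM over all 24 libraries, and ranged from 134.04 to 282.41. Xbp1 followed at 72.7 ± 18.2 FPKM and Creb3 at 27.1 ± 6.34 FPKM. The ranges of these 3 genes did not overlap. Next came Parp16 (14.6 ± 6.35 FPKM), Mbtps1 (10.9 ± 1.61), Atf6b (7.91 ± 1.56) and Atf6 (6.97 ± 1.94), each of whose ranges overlapped that of its neighbour. Ern1 (3.31 ± 1.60 FPKM), Eif2ak3 (3.27 ± 1.15) and Creb3l2 (3.04 ± 1.19) were lowest, and their means lay within 1 SD of each other. Of the relatives, the gut form of IRE1, Ern2, averaged 0.00625 FPKM, Creb3l4 averaged 0.157 FPKM and Creb3l1 averaged 0.440 FPKM, and none of the 3 was kept for the fits.

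The 10 genes fell into different patterns. Parp16, Creb3l2 and Eif2ak3 were lower in L2 delta13 than in WT livers in set 4 and higher in set 2. Creb3, Xbp1 and Atf6b were higher in L2 delta13 livers in both sets, but the size in set 4 changed with the libraries used. In set 4 their log2 differences were 0.56, 0.33 and 0.32. Without the 6 libraries with a higher FPKM per fragment, these were 0.22, 0.09 and 0.01. That leaves 2 WT libraries in set 4, so the class and those 2 libraries cannot be told apart. Ern1, Atf6, Mbtps1 and Creb3l3 had small differences whose size in set 4 also changed when the 6 libraries were left out.

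Parp16 (mouse chromosome 9, 65195353 to 65239224, plus strand, GRCm38) had the widest swing. In set 4 the 6 L2 delta13 livers had 8.43, 7.21, 9.01, 8.45, 9.07 and 8.35 FPKM, against 16.77, 21.2, 24.3, 24.36, 14.88 and 20.73 FPKM in WT livers. The groups of set 4 did not overlap, with every L2 delta13 library below every WT library. In set 2 the L2 delta13 livers had 21.45, 20.51, 27.25, 14.41, 13.17 and 18.94 FPKM, against 10.86, 12.01, 6.61, 10.9, 6.92 and 13.95 FPKM in WT livers. There all 6 L2 delta13 libraries stood above the WT mean, and the groups overlapped at 1 WT library. The fitted difference was -1.16 ± 0.17 (log2, SE) in set 4, a fold of 0.446, and 0.86 ± 0.17 in set 2, a fold of 1.82. The difference between these, set 4 minus set 2, was -2.03 ± 0.24. Over both sets the effects offset each other, at -0.15 ± 0.23.

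The same values read by genotype show opposite directions between the sets. Parp16 was lower in set 4 than in set 2 among L2 delta13 livers (-1.07 ± 0.17, no overlap) and higher in set 4 than in set 2 among WT livers (0.95 ± 0.17, no overlap). The 6 L2 delta13 libraries of set 4 also varied least, with an SD of 0.669 FPKM, against 3.88 FPKM in WT set 4. Without the 6 libraries of the other class, which leaves 2 in WT set 4, the genotype difference of Parp16 in set 4 was -1.08, and the difference between the sets was -1.93.

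Creb3l2 (chromosome 6, 37327255 to 37442146, minus strand), known from mouse cartilage for enlarging the secretory machinery through Sec23a, followed the same directions at a lower level. In set 4 the L2 delta13 livers had 2.18, 1.56, 1.83, 1.56, 1.85 and 2.51 FPKM, against 4.65, 3.19, 3.14, 2.87, 3.7 and 2.26 FPKM in WT livers. A WT library, at 2.26 FPKM, reached into the L2 delta13 range. In set 2 the L2 delta13 livers had 4.5, 4.54, 4.3, 6.13, 4.17 and 3.69 FPKM, against 2.21, 2.68, 2.6, 2.86, 2.32 and 1.74 FPKM in WT livers. These groups did not overlap, with every L2 delta13 library above every WT library. Fitted, Creb3l2 was at -0.55 ± 0.12 in set 4 and at 0.70 ± 0.12 in set 2, and the difference between the sets was -1.25 ± 0.18. Set 4 was lower than set 2 among L2 delta13 livers (-0.93 ± 0.12, no overlap), while among WT livers it was 0.33 ± 0.12 higher with overlap. With a pseudocount of 0.1 the difference between the sets was -1.64.

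Eif2ak3 (chromosome 6, 70844515 to 70905245, plus strand) followed the same directions. In set 4 the L2 delta13 livers had 1.9, 2.08, 2.33, 2.48, 2.32 and 2.51 FPKM, against 5.4, 5.14, 2.67, 2.76, 2.53 and 2.39 FPKM in WT livers. All 6 L2 delta13 libraries were below the WT mean, and the groups overlapped at the lowest WT library. The 2 high WT values were those of the 2 libraries in the same class as the L2 delta13 libraries of set 4, while the 4 others ranged from 2.39 to 2.76 FPKM. In set 2 the L2 delta13 livers had 4.01, 4.77, 3.32, 5.6, 4.62 and 3.33 FPKM, against 2.36, 4.57, 2.65, 3.67, 2.57 and 2.4 FPKM in WT livers. All 6 of the L2 delta13 libraries exceeded the WT mean there, with overlap. Fitted, Eif2ak3 was at -0.41 ± 0.16 in set 4 and at 0.40 ± 0.16 in set 2, and the difference between the sets was -0.80 ± 0.23. Without the 6 libraries of the other class, Eif2ak3 was at -0.94 in set 4 and the difference between the sets was -1.35. Among L2 delta13 livers set 4 was 0.68 ± 0.16 lower than set 2, with no overlap. Among WT livers set 4 was 0.12 ± 0.16 higher than set 2, with overlap.

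**Figure D2:**
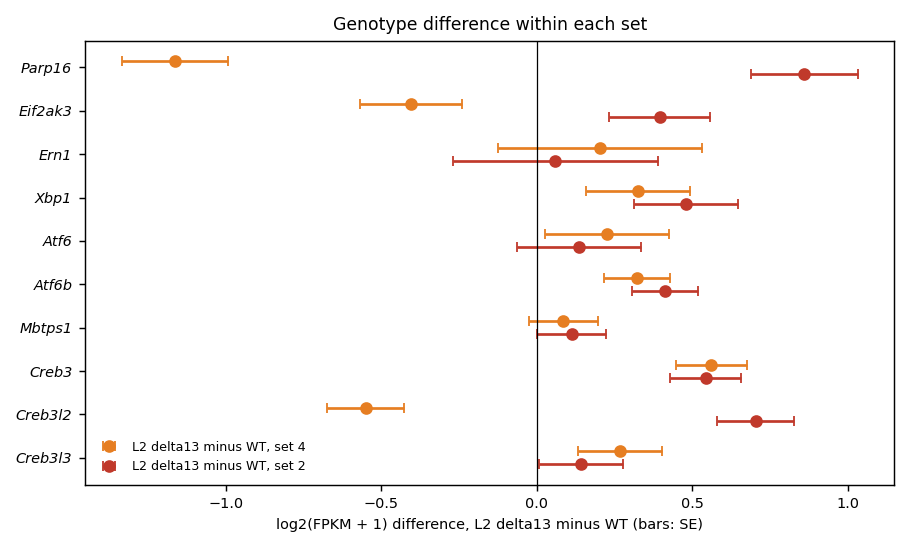
Genotype difference (x axis, log2(FPKM + 1), L2 delta13 minus WT, bars SE from the fit over 24 libraries) of each gene (y axis) in set 4 and in set 2. Parp16, Creb3l2 and Eif2ak3 lie left of 0 in set 4 (-1.16, -0.55 and -0.41) and right of 0 in set 2 (0.86, 0.70 and 0.40), while Creb3, Xbp1 and Atf6b lie right of 0 in both.

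Counted over all genes, 2 of the 10 members were called in the difference between the sets at an adjusted p under 0.05, both lower (Parp16 and Creb3l2), where 0.152% of all tested genes were called, 0.123% lower and 0.0285% higher. Without the 6 libraries of the other class, or with the class as a term, 3 were called, Eif2ak3 being the third. Of all tested genes, 0.589% were called lower and 0.0475% higher without the 6 libraries. With the class as a term these shares were 0.532% and 0.114%. No gene of the 10532 showed both a higher group in set 2 and a lower group in set 4 without overlap. Among L2 delta13 livers 3 of 10 were called lower in set 4 (Parp16, Eif2ak3 and Creb3l2), against 5.51% of all genes (6.06% in either direction), and these were also the 3 without overlap between the sets, against 4.97% of all genes (0.370% in the other direction). Among WT livers 1 of 10 was called, Parp16, higher in set 4, against 0.0855% of all genes (0.104% lower, 0.190% in either direction). Eif2ak3 was no longer called among L2 delta13 livers under either scaling alternative, nor Parp16 among WT livers without the 6 libraries or with their class as a term. Groups without overlap were seen in set 4 for 1 member, Parp16, lower (1.70% of all genes, and 4.86% higher), and in set 2 for 3 members, Creb3l2, Creb3 and Atf6b, higher (5.44%).

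The promoters of the 3 genes with opposite directions are shown because their genotype differences had the same signs in each set. They were picked by those signs. Each is the 250 bases before the RefSeq start site in GRCm38.p6, 5′ to 3′ on the gene's strand, and capitals mark matches to AGGTCA (Parp16) or to the CCAAT box on either strand (Creb3l2 and Eif2ak3). The Parp16 window lies inside the span given for the gene above, so it precedes an inner start site.
Parp16, chr9:65214440-65214689, plus strand: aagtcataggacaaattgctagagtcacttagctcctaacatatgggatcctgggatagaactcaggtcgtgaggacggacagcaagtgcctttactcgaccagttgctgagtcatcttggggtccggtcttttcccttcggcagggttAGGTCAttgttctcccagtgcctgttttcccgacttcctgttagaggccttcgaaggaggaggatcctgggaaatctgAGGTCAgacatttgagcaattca
Creb3l2, chr6:37442149-37442398, minus strand: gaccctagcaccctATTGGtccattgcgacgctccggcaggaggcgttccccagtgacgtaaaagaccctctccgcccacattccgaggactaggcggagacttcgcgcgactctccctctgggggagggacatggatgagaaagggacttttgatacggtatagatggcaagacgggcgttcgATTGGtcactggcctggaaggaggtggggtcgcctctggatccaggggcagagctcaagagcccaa
Eif2ak3, chr6:70844265-70844514, plus strand: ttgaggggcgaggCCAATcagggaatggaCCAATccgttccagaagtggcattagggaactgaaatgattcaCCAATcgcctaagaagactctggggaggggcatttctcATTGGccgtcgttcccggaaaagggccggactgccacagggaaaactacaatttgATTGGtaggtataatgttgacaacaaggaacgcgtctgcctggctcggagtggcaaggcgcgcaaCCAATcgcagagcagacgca

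RefSeq promoters (250 bases before to 50 after the start) were found for 9 of the 10 members, in 10 windows. Searches used both strands. None of the 10 windows held the ER stress response element (ERSE, in 0.119% of 32851 promoters), the unfolded protein response element TGACGTGG (0.676%), the cAMP response element TGACGTCA (1.79%) or the amino acid response element TGATGNAAT (0.965%). The motif CCACG, which is part of the ERSE and was found in 32.8% of all promoters, occurred in Creb3, Mbtps1, Creb3l3 and Ern1. All 250 bases before the Creb3 start site lay within annotated exons of the members. For Creb3l3, every motif match given here lay in the window inside the gene's span, and none in the window at its start. Motifs added after the values were seen were the E-box CACGTG, in Atf6b (7.15% of all promoters), the D-box TTATGTAA, in no member (0.938%), AGGTCA, in Parp16 at bases -101 and -23 and in Creb3l3 (16.3%), and CCAAT (37.4%). The CCAAT box had 2 matches in Creb3l2, 6 in Eif2ak3 and 1 each in Creb3l3 and Atf6b. A match is a description of letters, not of a bound site.

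The difference between the sets was tested for all other genes. In all, 16 genes were called, 3 higher and 13 lower. Besides Parp16 and Creb3l2 they included Nr1d1, Nr1d2, Nfil3 and Cry1, singled out after their values were seen. No list of circadian clock genes was tested. Nr1d1, which encodes the clock repressor REV-ERBalpha, averaged 29.0 ± 10.5 FPKM in L2 delta13 and 2.73 ± 1.34 FPKM in WT livers of set 4, and 5.71 ± 1.60 FPKM in L2 delta13 and 8.20 ± 8.02 FPKM in WT livers of set 2 (SD, n = 6 each). Its difference between the sets was 3.11 ± 0.51 (limma, adjusted p = 0.00541). Nfil3 differed by -1.83 ± 0.34 (adjusted p = 0.0212) and Cry1 by -0.99 ± 0.20 (adjusted p = 0.0368). The genotype difference of Nfil3 was -1.17 ± 0.24 in set 4 and 0.66 ± 0.24 in set 2. That of Cry1 was -0.91 ± 0.14 in set 4 and 0.09 ± 0.14 in set 2. These directions were those of Parp16, Creb3l2 and Eif2ak3. Nr1d2 differed by 1.56 ± 0.27 (adjusted p = 0.00982). The part of these 4 genes in the values of Parp16, Creb3l2 and Eif2ak3 was not tested.

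**Figure D3:**
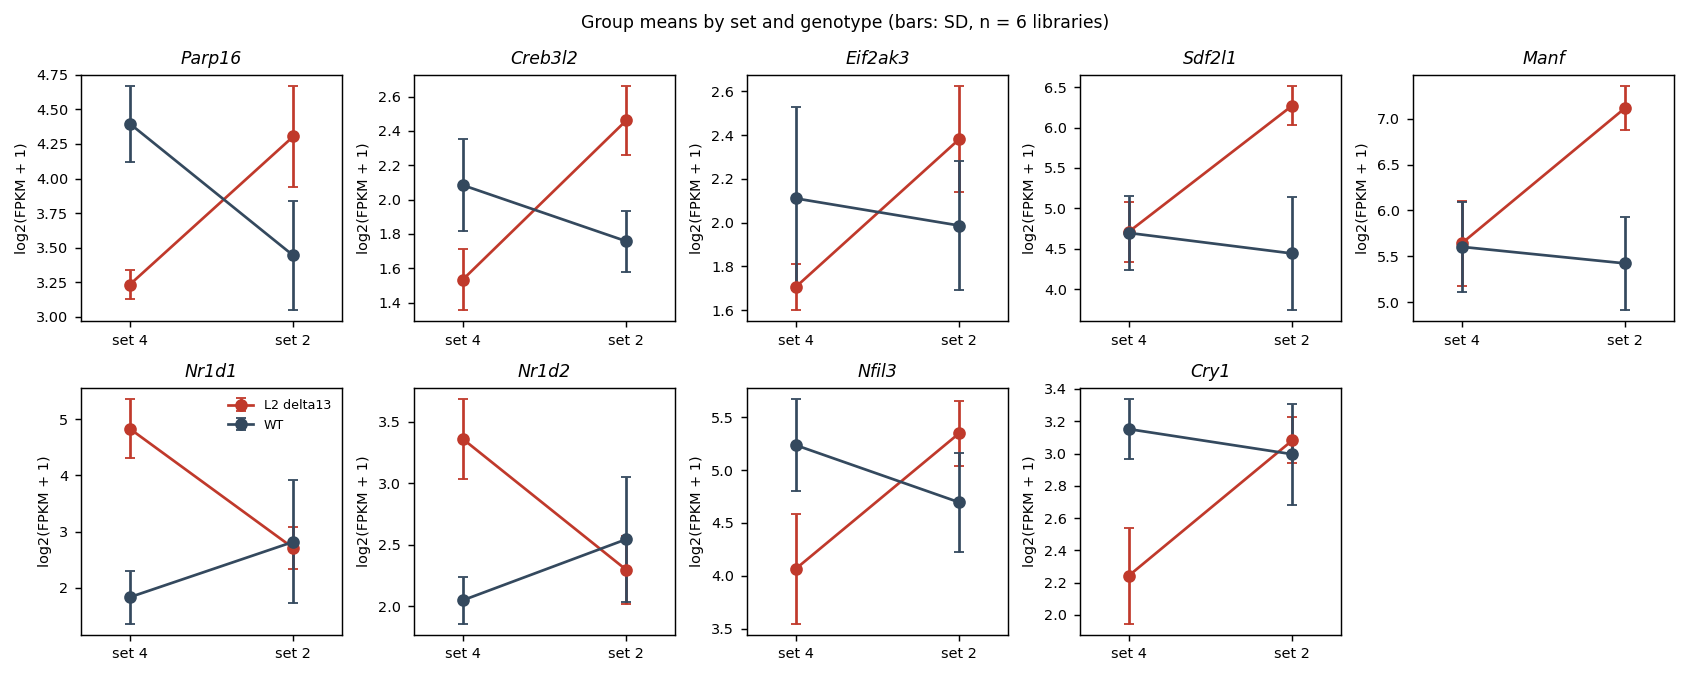
Mean log2(FPKM + 1) (y axis) of 9 genes in set 4 and set 2 (x axis) for L2 delta13 and WT livers, with bars for the SD of 6 libraries. The lines of Parp16, Creb3l2, Eif2ak3, Nfil3 and Cry1 cross, with L2 delta13 lower in set 4. Those of Sdf2l1 and Manf meet in set 4. Those of Nr1d1 and Nr1d2 cross the other way and are highest in L2 delta13 livers of set 4.

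Creb3, Xbp1 and Atf6b shared a direction in both sets, and were the 3 of 10 members called over both sets, all higher, where 25.9% of all tested genes were called higher, 4.86% lower and 30.8% in either direction. Xbp1 was no longer called with median-of-ratios scaling, quantile normalization or the class as a term. The median genotype difference was 0.16 over the 10 members and 0.12 over all genes. Creb3 (chromosome 4, 43562332 to 43567060, plus strand), also called Luman, ranged in set 4 from 25.32 to 34.96 FPKM (median 31.2) in L2 delta13 livers and from 17.06 to 26.96 FPKM (median 18.8) in WT livers. In set 2 it ranged from 31.12 to 37.53 FPKM (median 34.2) in L2 delta13 livers and from 20.81 to 27.87 FPKM (median 22.3) in WT livers. The groups overlapped slightly in set 4 and not at all in set 2. Its difference was 0.56 ± 0.11 in set 4, 0.54 ± 0.11 in set 2 and 0.55 ± 0.08 over both, a fold of 1.47. Over both sets it was 0.41 with median-of-ratios scaling and 0.41 without the 6 libraries of the other class. In set 4 alone, it was 0.22 without those libraries.

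Atf6b (chromosome 17, 34647146 to 34655074, plus strand) encodes the less active relative of ATF6. It ranged in set 4 from 7.15 to 9.51 FPKM (median 8.46) in L2 delta13 livers and from 4.99 to 8.88 FPKM (median 6.33) in WT livers. In set 2 it ranged from 8.6 to 10.97 FPKM (median 9.52) in L2 delta13 livers and from 6.65 to 7.38 FPKM (median 7.06) in WT livers. The set 2 groups did not overlap, while those of set 4 did. Fitted differences were 0.32 ± 0.11 (set 4) and 0.41 ± 0.11 (set 2). In set 4 it was 0.01 without the 6 libraries of the other class, where the WT libraries split into 4 at 4.99 to 6.65 FPKM and 2 at 7.54 and 8.88 FPKM.

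Xbp1 (chromosome 11, 5520659 to 5525893, plus strand) encodes the transcription factor made after IRE1 splicing. In set 4 the range was 61.91 to 112.17 FPKM (median 70.5) in L2 delta13 livers and 46.32 to 83.54 FPKM (median 58.3) in WT livers. In set 2 the range was 67.58 to 108.31 FPKM (median 89.3) in L2 delta13 livers and 44.63 to 78.07 FPKM (median 63.7) in WT livers. All 6 L2 delta13 libraries of each set were above the WT mean, and both pairs of groups overlapped. Fitted differences were 0.33 ± 0.17 (set 4) and 0.48 ± 0.17 (set 2). In set 4 it was 0.09 without the 6 libraries of the other class, and 0.02 with the class as a term. Activation of IRE1 is read from the splicing of Xbp1 mRNA, which a value per gene does not separate. The stretch around the removed bases is shown to make clear what the values cannot resolve. Capitals mark 26 bases whose removal gives the spliced sequence, with 20 bases on either side. Removing 26 bases that start with the cag just before the capitals leaves the same sequence. The capitals therefore do not mark the exact cuts of IRE1. The capitals lie at chr11:5524282-5524307 (GRCm38, plus strand), in the coding part of exon 4 of 5 of the transcript Xbp1-201 (GENCODE M21).
Xbp1 splice site: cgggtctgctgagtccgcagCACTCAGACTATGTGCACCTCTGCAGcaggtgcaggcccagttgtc

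Ern1, Atf6, Mbtps1 and Creb3l3 differed little between genotypes. Ern1 (chromosome 11, 106394650 to 106487852, minus strand), the sensor that splices Xbp1, had 2.11, 4.25, 4.04, 2.54, 2.13 and 4.4 FPKM in L2 delta13 and 3.98, 6.71, 1.09, 2.19, 1.01 and 3.09 FPKM in WT livers of set 4. In set 2 it had 4.79, 4.58, 1.21, 5.82, 2.47 and 2.6 FPKM in L2 delta13 and 3.28, 3.34, 5.33, 2.91, 4.93 and 0.74 FPKM in WT livers. The genotypes overlapped throughout. Fitted differences were 0.20 ± 0.33 (set 4) and 0.06 ± 0.33 (set 2), and the first turned to -0.59 without the 6 libraries of the other class. Those 6 libraries held the lowest Ern1 values of their groups, and 5 of them lay at or below 2.19 FPKM.

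Atf6 (chromosome 1, 170704674 to 170867771, minus strand) ranged in set 4 from 5.36 to 8.95 FPKM in L2 delta13 livers and from 4.44 to 11.14 FPKM in WT livers. In set 2 it ranged from 5.32 to 8.66 FPKM in L2 delta13 livers and from 3.8 to 10.33 FPKM in WT livers. Its difference was 0.23 ± 0.20 in set 4, which turned to -0.32 without the 6 libraries, and 0.14 ± 0.20 in set 2, which was -0.02 with median-of-ratios scaling. In WT set 4 the 4 libraries of the other class had 4.44 to 4.95 FPKM and the remaining 2 had 7.28 and 11.14 FPKM. Atf6 and Ern1 deviated together from their group means, with a Pearson r of 0.883 over 24 libraries and 0.767 over the 18 of 1 class. These are descriptions across libraries that share their class and depth.

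Mbtps1 (chromosome 8, 119508156 to 119558735, minus strand) ranged in set 4 from 8.77 to 11.43 FPKM in L2 delta13 livers and from 7.7 to 12.9 FPKM in WT livers. In set 2 the range was 10.72 to 15.27 FPKM in L2 delta13 livers and 10.59 to 11.84 FPKM in WT livers. Its difference was 0.09 ± 0.11 in set 4, -0.25 without the 6 libraries, and 0.11 ± 0.11 in set 2, -0.06 with median-of-ratios scaling. Its direction thus changed with the libraries left out and with the scaling.

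Creb3l3 (chromosome 10, 81084324 to 81098874, minus strand) ranged in set 4 from 170.2 to 219.57 FPKM (median 194) in L2 delta13 livers and from 134.04 to 194.45 FPKM (median 158) in WT livers. In set 2 it ranged from 157.62 to 282.41 FPKM (median 202) in L2 delta13 livers and from 162.6 to 246.41 FPKM (median 173) in WT livers. All 6 L2 delta13 libraries exceeded the WT mean in set 4 and 4 of 6 did so in set 2, with overlap in both. The difference was 0.27 ± 0.14 in set 4, 0.00 without the 6 libraries, and 0.14 ± 0.14 in set 2, -0.04 with median-of-ratios scaling.

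**Figure D4:**
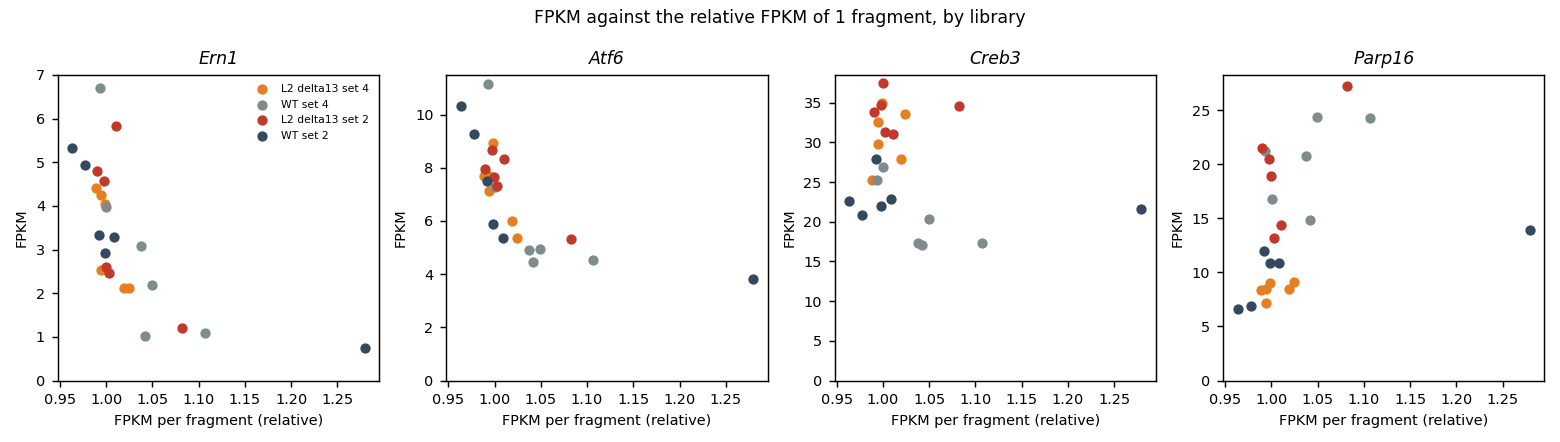
FPKM (y axis, from 0) of Ern1, Atf6, Creb3 and Parp16 in each library against the relative FPKM of 1 fragment (x axis, 1 is the median library), coloured by group. Libraries from 1.038 upwards are the 6 of the other class. Ern1 and Atf6 are low in these libraries, Creb3 is low in the 4 of WT set 4, and Parp16 is not low in them.

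Genes downstream of the sensors were taken from lists chosen with earlier results known. Among 26 ATF6 and XBP1 targets (ER chaperones and degradation factors), 17 were higher and 1 was lower in L2 delta13 livers over both sets (25.9% and 4.86% of all genes), with a median of 0.63 against 0.12 over all genes. With median-of-ratios scaling 15 were higher and 3 lower (11.5% and 11.1% of all genes). The degradation factor Derl3 averaged 12.6 ± 7.2 FPKM in L2 delta13 and 5.17 ± 4.02 FPKM in WT livers of set 4 (SD, n = 6 each). In set 2 it averaged 63.7 ± 51.4 FPKM in L2 delta13 livers and 3.54 ± 2.65 FPKM in WT livers. Replicate 3 of L2 delta13 set 2, a library of the other class, had 167.26 FPKM, and the other 5 of that group had 34.93 to 57.59 FPKM. Over both sets Derl3 differed by 2.52 ± 0.40 (limma, adjusted p = 5.96e-05), and by 2.27 ± 0.45 without the 6 libraries (adjusted p = 0.00171). Hsp90b1, the chaperone GRP94, rose by 1.11 ± 0.13 (adjusted p = 1.61e-06). Herpud1, an ER-associated degradation factor, fell by 1.16 ± 0.24 (adjusted p = 0.000747), and Derl2 was at -0.05 ± 0.07 (adjusted p = 0.597).

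These targets also differed between the sets in L2 delta13 livers. There 15 of 26 were lower and none higher in set 4 (5.51% and 0.551% of all genes), with a median of -0.59 against -0.15 over all genes. In WT livers limma called none of the 26, where 0.104% of all genes were lower and 0.0855% higher. Of the 26, 0 had an unadjusted p under 0.05 there (median -0.01 against -0.08). The count lower among L2 delta13 livers was 9 with median-of-ratios scaling (1.86% of all genes) and 11 with quantile normalization (1.98%). It was 19 without the 6 libraries (8.55%). For 2 of the 26 the genotype difference itself was called as different between the sets, against 0.152% of all genes. At an unadjusted p under 0.05 (limma), 15 of the 26 were lower and 0 higher in this difference. The share of all genes at that unadjusted level is not given here. Sdf2l1, a partner of the chaperone BiP, averaged 25.9 ± 6.80 FPKM in L2 delta13 and 26.1 ± 9.95 FPKM in WT livers of set 4, and 77.2 ± 13.4 FPKM in L2 delta13 and 23.1 ± 12.5 FPKM in WT livers of set 2. The difference between the sets was -1.81 ± 0.36 (limma, adjusted p = 0.0368). Manf, a secreted ER stress protein, averaged 50.9 ± 14.3 FPKM in L2 delta13 and 50 ± 17.8 FPKM in WT livers of set 4, and 140 ± 24.9 FPKM in L2 delta13 and 44.2 ± 16.4 FPKM in WT livers of set 2. Its difference was -1.66 ± 0.34 (adjusted p = 0.0368), and its call was lost with median-of-ratios scaling, with quantile normalization and without the 6 libraries (limma, adjusted p = 0.0133 to 0.0893 over the settings). The call of Sdf2l1 held in those settings and with the class as a term (limma, adjusted p = 0.012 to 0.0483). Other settings, such as 1 library left out, were not examined for these 2 genes.

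Of the PERK and ATF4 targets, 1 was higher and 3 were lower of 11 tested over both sets (25.9% and 4.86% of all genes). Their median was -0.16 against 0.12 over all genes. The pseudokinase Trib3 rose by 1.06 ± 0.15 (limma, adjusted p = 2.39e-05). The mTORC1 inhibitor Ddit4 fell by 1.24 ± 0.34 (adjusted p = 0.00718) and the transcription factor Cebpb fell by 1.13 ± 0.21 (adjusted p = 0.000251), while Chac1 was at -0.05 ± 0.19 (adjusted p = 0.884). Among L2 delta13 livers 2 of 11 were lower in set 4, where 5.51% of all genes were lower. They were Ddit3 (CHOP, -1.33 ± 0.35, limma, adjusted p = 0.0271) and Sesn2 (-0.64 ± 0.19, adjusted p = 0.0467).

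Of the Creb3l3 targets, 4 of 10 were higher and none lower over both sets, where 25.9% of all genes were higher and 4.86% lower. Their median was 0.19, against 0.12 over all genes. The apolipoprotein Apoa4 averaged 682 FPKM in L2 delta13 and 162 FPKM in WT livers of set 4, and 2962 FPKM in L2 delta13 and 210.2 FPKM in WT livers of set 2, a rise of 2.79 ± 0.31 over both (limma, adjusted p = 1.11e-06). The lipid droplet protein Cidec rose by 2.33 ± 0.26 (adjusted p = 1.09e-06) and the lipoprotein lipase cofactor Apoc2 by 0.66 ± 0.22 (adjusted p = 0.0251), and Apoc2 lost its call with median-of-ratios scaling (adjusted p = 0.000299 to 0.0698 over the settings). The hormone Fgf21 was at -0.09 ± 0.32 (adjusted p = 0.859) and G6pc at 0.06 ± 0.16 (adjusted p = 0.792). Among L2 delta13 livers Apoa4 was 2.03 ± 0.39 lower in set 4 (adjusted p = 0.00419), while Creb3l3 mRNA was 0.09 ± 0.14 lower.

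Substrates of IRE1-dependent mRNA decay gave no call in either direction of 6 tested over both sets with limma, where 2 were higher and 1 was lower at an unadjusted p under 0.05. The nearest to 0 was Scara3 at 0.05 ± 0.19 (adjusted p = 0.876). Sparc was lower in set 4 among L2 delta13 livers (-1.25 ± 0.17, adjusted p = 0.000276), where markers of stellate and endothelial cells also moved. There 4 of 6 stellate markers and 3 of 6 sinusoidal endothelium markers were lower, against 5.51% of all genes. The summed stellate markers were 59.34 to 92.7 FPKM in L2 delta13 set 4 and 103.9 to 291.4 FPKM in L2 delta13 set 2, and the summed endothelial markers were 37.54 to 87.09 FPKM in L2 delta13 set 4 and 93.63 to 187.2 FPKM in L2 delta13 set 2. Their part in the results was not tested.

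**Figure D5:**
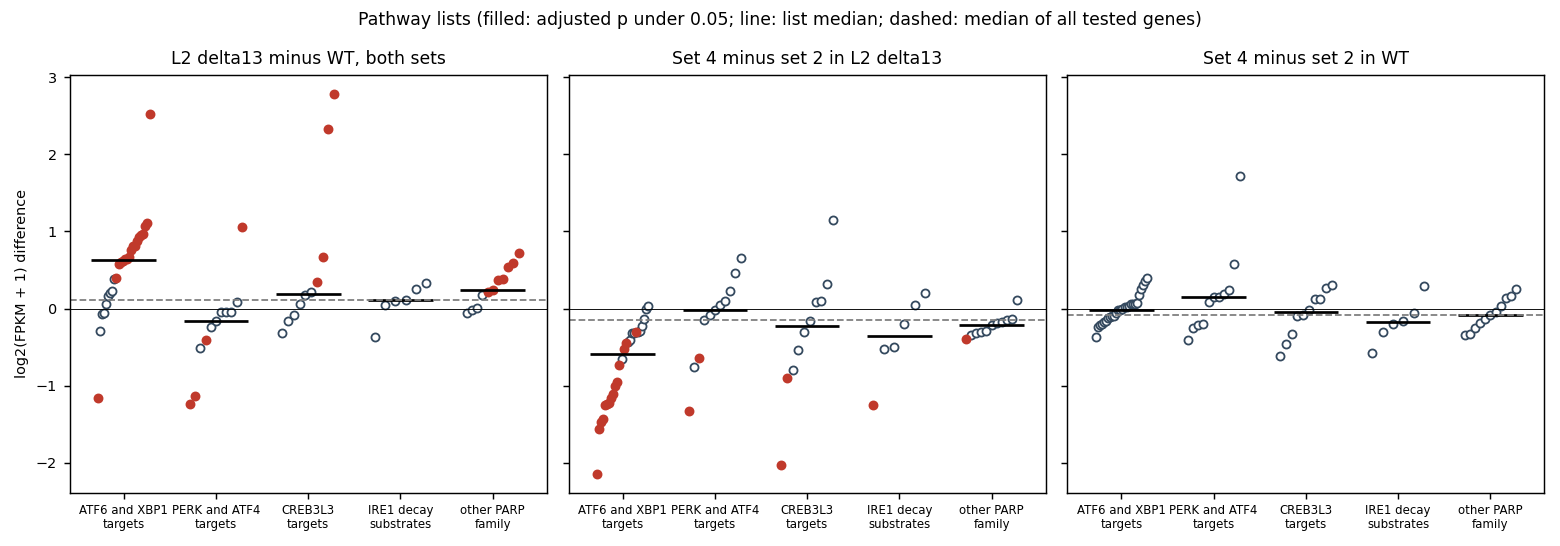
Differences (y axis, log2(FPKM + 1)) of the tested members of 5 lists (x axis), for L2 delta13 minus WT over both sets, and for set 4 minus set 2 in each genotype. Each point is a gene, filled where its adjusted p was under 0.05, with the list median as a line and the median of all genes dashed. ATF6 and XBP1 targets are mostly above 0 in the first panel and below it in the second, and none is called in WT livers.

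The route that carries ATF6 and CREB3 proteins to the Golgi proteases had 11 of 18 genes higher and 2 lower in L2 delta13 livers, against 25.9% and 4.86% of all genes. Median-of-ratios scaling gave 5 higher and 3 lower (11.5% and 11.1% of all genes), and leaving out the 6 libraries gave 5 higher and 2 lower (14.8% and 4.78%). The COPII coat genes Sec24d (0.81 ± 0.15, limma, adjusted p = 0.000377) and Sec23a (0.64 ± 0.16, adjusted p = 0.00374) rose, the sterol sensor Insig1 fell by 0.69 ± 0.15 (adjusted p = 0.000968), and Sar1b was at 0.00 ± 0.07 (adjusted p = 0.98). The 4 tested relatives of the sensors and proteases (Eif2ak1, Eif2ak2, Eif2ak4 and Mbtps2) were all higher, by 0.20 to 0.34, but none was called with median-of-ratios scaling. Among 11 other PARP genes 7 were higher and none lower, against the same 25.9% and 4.86% of all genes. The count was 5 under median-of-ratios scaling, with 11.5% of all genes higher. Parp9 (0.72 ± 0.09, adjusted p = 7.82e-06), Parp12 (0.59 ± 0.09, adjusted p = 5.67e-05) and Parp14 (0.54 ± 0.09, adjusted p = 8.27e-05) rose, and Parp6 was at 0.00 ± 0.11 (adjusted p = 0.991). In the difference between the sets, where Parp16 was at -2.03, limma called none of the 11, and 1 was lower at an unadjusted p under 0.05.

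Markers of other cells moved with genotype too. Over both sets 4 of 6 sinusoidal endothelium markers and 2 of 6 Kupffer cell markers were higher in L2 delta13 livers, where 25.9% of all genes were higher. These counts became 1 and 0 under median-of-ratios scaling, where 11.5% of all genes were higher. The summed endothelial markers were 37.54 to 87.09 FPKM in L2 delta13 and 25.8 to 90.3 FPKM in WT livers of set 4, and 93.63 to 187.2 FPKM in L2 delta13 and 36.06 to 105.9 FPKM in WT livers of set 2. Kupffer markers also differed between the sets. Their sum was 17.67 to 78.32 FPKM (median 27.59) in WT set 4 and 49.3 to 114.9 FPKM (median 82.59) in WT set 2. In L2 delta13 livers it was 32.9 to 125.9 FPKM (median 64.19) in set 4 and 68.24 to 146 FPKM (median 96.8) in set 2. The part of these cells in the levels of the 10 genes was not tested.

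Within groups, 4 relations were computed on deviations of log2(FPKM + 1) from the group means over 24 libraries, with permutation within groups and adjustment over the 4. Parp16 and Eif2ak3 gave a Pearson r of -0.138 (permutation p = 0.57, adjusted p = 0.76) and a Spearman rho of -0.182 (permutation p = 0.45). Parp16 and Ern1 gave an r of -0.422 (permutation p = 0.0768, adjusted p = 0.154) and a rho of -0.413 (permutation p = 0.0756). Xbp1 and the mean of its 26 listed targets gave an r of 0.426 (permutation p = 0.0698, adjusted p = 0.154) and a rho of 0.451 (permutation p = 0.048, adjusted p = 0.151). Creb3l3 and Apoa4 gave an r of 0.036 (permutation p = 0.888, adjusted p = 0.888) and a rho of -0.0643 (permutation p = 0.782). None passed the adjusted threshold. Without the 2 libraries farthest from the median of the first gene, r was -0.171, -0.453, 0.721 and 0.117 in that order of pairs. Within the 18 libraries of 1 class, r was 0.183, -0.205, 0.18 and 0.367.

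The genes whose deviations followed a member most closely over the 24 libraries are given as a description. For Parp16 they were Gnb2 (r of 0.846), Cd63 (0.844) and Anks3 (0.844), which had 0.821, 0.811 and 0.8 over the 18 libraries of 1 class. For Xbp1 they were Slc30a5 (0.824), Hspb8 (0.763) and Slc35c1 (0.753), with 0.671, 0.655 and 0.709 over the 18. For Creb3l3 they included Scamp2 (0.921) and Ptpa (0.897), with 0.779 and 0.847. Libraries share their class and depth, which enters every such value.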

How the data were processed

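Liver RNA of 24 libraries was sequenced on the BGISEQ-500 platform, per the labels' protocols. Per the submitters' processing notes, HISAT, Bowtie2 and RSEM were used, without versions, with the build GRCm38.p5. The authors deposited FPKM values per gene, used as given. The table held 18171 genes, of which 18040 identifiers matched a RefSeq symbol. No column lacked a sample (0).

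The 10532 genes that reached 1 FPKM in 6 or more libraries were fitted as log2(FPKM + 1) with limma 3.58.1 in R 4.3.3, with a variance trend and two-sided tests adjusted by Benjamini and Hochberg over all genes within a comparison, and called at an adjusted p under 0.05. The genotype over both sets came from an additive fit of set and genotype. All other comparisons came from 1 mean per group. The 10 members and the lists were chosen with earlier results of these data known. For each list, the rule named the 3 called genes of largest difference and the tested gene nearest to 0, with Apoa4, Cidec and Fgf21 always. Some genes that met a rule for naming are not reported here. The steps that gave the FPKM of 1 fragment came from 259 low genes, where 82.3% of the nonzero values were no more than 0.2 from a multiple of the step, up to 3 steps. Their own lowest values set the steps, so this is no independent check. The number of 6 libraries in the other class was set by hand. The cause of the class is not given in the sources used here.

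Library correlations ran from 0.909 to 0.992, and no pair held identical values. Tested on simulated data of 10532 genes, the fit recovered 95% of 2-fold changes in the genotype over both sets and 67% in the difference between the sets. For 1.5-fold changes it recovered 74% and 16%. Relations used 100000 permutations. Alternatives were another pseudocount, filter, scaling, variance model, replicate block, the class of library and each library left out. The software was numpy 2.4.6, matplotlib 3.10.9 and pandas 2.3.3 under Python 3.11.15.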

Additional observations from a re-analysis of the deposited data

Results flagged for a closer look

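Within 4 of the 40 groups of 6 libraries examined (10 genes in 4 groups), 1 library stood apart from the others by Dixon's test, where chance gives about 1 in 20 groups. These were the highest values of Xbp1 in L2 delta13 set 4 (replicate 8, 112.17 FPKM), Creb3l2 in L2 delta13 set 2 (replicate 4, 6.13 FPKM), Mbtps1 in L2 delta13 set 2 (replicate 3, 15.27 FPKM) and Creb3 in WT set 2 (replicate 2, 27.87 FPKM).

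The genotype difference itself differed between the sets for some genes. Its difference, set 4 minus set 2 on the log2 scale, was -2.03 for Parp16 and -1.25 for Creb3l2, for which the values had been known when the genes were chosen. It was -1.81 for Sdf2l1 and -1.66 for Manf, both past the threshold in limma over all genes. For Eif2ak3 it was -0.80, with all 6 L2 delta13 libraries below the WT mean in set 4 and all 6 above it in set 2. It did not pass the threshold over the 24 libraries, but did without the 6 libraries of the other class and with the class as a term. As with Parp16 and Creb3l2, nothing is read from these calls.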

How the results depend on the processing

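Over all genes, 3242 were called for genotype over both sets, 16 for the difference between the sets, 638 for set 4 minus set 2 in L2 delta13 and 20 for it in WT livers. Without the 6 libraries of the other class the counts were 2057, 67, 1007 and 1. With the class as a term, the difference between the sets gave 68 and the L2 delta13 sets 1117. With no filter the difference between the sets gave 6. Scaling moved the L2 delta13 sets to 301 (median-of-ratios) and 345 (quantile). It also moved the genotype split of 2730 higher and 512 lower to 1215 and 1164 (median-of-ratios) and to 1310 and 1079 (quantile), and the median of all genes by -0.12 and -0.11. The causes were not tested. Leaving out 1 library in turn gave 2733 to 3846 for genotype (without WT set 4 replicates 11 and 8), 6 to 19 for the difference between the sets (without L2 delta13 set 4 replicates 8 and 10), 294 to 883 for the L2 delta13 sets (without L2 delta13 set 4 replicate 7 and WT set 2 replicate 6) and 7 to 82 for the WT sets (without WT set 2 replicate 3 and WT set 4 replicate 8). With the replicate block, genotype gave 2526 and the difference between the sets 9, and set contrasts could not be fitted. Deviations of same-numbered libraries from their group means correlated at -0.604 to 0.26. These values show no steady pairing by number, but they cannot exclude one. Xbp1 with its targets passed the threshold with median-of-ratios scaling (r of 0.561, permutation, adjusted p = 0.0316, against up to 0.605 in the other settings), and Parp16 with Eif2ak3 turned to an r of 0.183 without the 6 libraries. Of the members' differences under all settings, 1907 moved by less than the spread between replicates and 33 by more. Many of them could not move. A filter, the variance model or a left-out library of a group outside the comparison leaves a gene's difference unchanged. No called value changed sign, but the uncalled set 4 differences of Ern1, Atf6 and Mbtps1 did so without the 6 libraries. FPKM gives no depth, which limits what can be said of Eif2ak3, Ern1 and Creb3l2.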
